A study of Mus musculus with 7 samples.

Results

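The 10 genes described here encode the neuropeptides Vip, Tac1, Penk, Calcb, Grp, Gal and Npy and the transmitter-making enzymes Nos1, Chat and Dbh, followed through the development of the mouse colon. They were taken by name, with no threshold on their levels, from 18194 genes measured by at least 1 probe set that names a single gene. All 10 were measured, by 16 such probe sets in all, with 7 genes on 1 probe set each, Tac1 on 2, Dbh on 3 and Nos1 on 4. Each probe set was read on its own, and the level of a gene was the median over its probe sets.

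RNA of colon from the inbred strain C57BL/6 was measured with 1 Affymetrix Mouse Genome 430 2.0 array per stage, daily from E13.5 to E18.5 (embryonic days) and once in the adult, 8 weeks old. The mice carried no labelled allele and received no labelled treatment, so the labels separate the groups by age alone. The labels do not say how many animals gave the RNA of an array. Values are log2 intensities normalised together by RMA, so 1 unit is a 2-fold difference, and no stage has a replicate array.

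Enteric neurones arise from neural crest cells that colonise the gut, join into the myenteric and submucosal plexuses, and take up transmitters in sequence. Inhibitory motor neurones make nitric oxide and vasoactive intestinal peptide and relax the muscle, while excitatory motor neurones release acetylcholine with tachykinins and contract it. Some of the same peptides are also made elsewhere in the gut, in enteroendocrine cells of the epithelium or in nerve fibres whose cell bodies lie outside the wall and whose mRNA is largely not in the gut.

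Across the embryonic stages, 6 of the 10 genes rose, namely Vip, Tac1, Penk, Calcb, Grp and Nos1, as tested by a limma slope per embryonic day with an adjusted p under 0.05 over all 18194 genes. By the same rule 9.12% of all genes rose and 10.4% fell. None of the 10 fell, and 0 had a slope below 0 at an unadjusted p under 0.05 in limma. The median slope over the 10 genes was 0.10 log2 per day, beside 0.000874 over all genes. With each stage on a single array, the error of a slope is the spread around the line, and the number of arrays limits its precision. Without the E18.5 array 3 of the 10 genes were called (Vip, Calcb and Penk), and without E13.5 and E14.5 also 3 (Vip, Tac1 and Penk).

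In whole colon, fewer cells of a type and less RNA per cell cannot be told apart. Genes that mark neurones in general also moved, and the median level of 17 such pan-neuronal genes was 0.54 log2 above E13.5 at E14.5 and 0.60 above it at E18.5, and in the adult it was 0.41 below E13.5. When this median was subtracted on each array, 4 of the 10 genes rose (Vip, Tac1, Penk and Calcb), against 3.67% of all genes, and Gal fell, as did 20.1% of all genes. All genes then share the error of that median, which limma does not take into account. Calls and p-values in this setting can therefore overstate certainty. The control probe set at the 5′ end of Gapdh, a gauge of RNA integrity and priming, differed from that at the 3′ end by -2.41 log2 in the adult and by -1.59 to -1.29 in the embryos. The part of these shifts in the results below was not tested.

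The bases before the RefSeq starts of Vip and Tac1, the genes that rose most, and of Nos1, the enzyme that shares inhibitory neurones with Vip, are shown. They were read for the cyclic AMP response half-site, letters through which CREB-family factors are known to act on neuropeptide genes. Each window holds the 250 bases before the start of the gene in RefSeq, build GRCm38.p6, 5′ to 3′ on the plus strand, at chr10:5638968-5639217 for Vip, chr6:7554811-7555060 for Tac1 and chr5:117866589-117866838 for Nos1. Capitals mark TGACG or its reverse complement CGTCA and the longer TGCGTCA, which contains CGTCA.
Vip: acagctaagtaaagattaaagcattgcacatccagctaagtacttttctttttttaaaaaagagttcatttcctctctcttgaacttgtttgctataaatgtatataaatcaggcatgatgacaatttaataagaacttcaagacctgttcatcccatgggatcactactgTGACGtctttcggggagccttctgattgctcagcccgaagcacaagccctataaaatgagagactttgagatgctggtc
Tac1: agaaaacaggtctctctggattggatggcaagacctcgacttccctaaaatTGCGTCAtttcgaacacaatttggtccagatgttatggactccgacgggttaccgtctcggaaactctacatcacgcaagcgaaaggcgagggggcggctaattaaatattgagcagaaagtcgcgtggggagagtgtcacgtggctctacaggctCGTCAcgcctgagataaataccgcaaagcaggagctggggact
Nos1: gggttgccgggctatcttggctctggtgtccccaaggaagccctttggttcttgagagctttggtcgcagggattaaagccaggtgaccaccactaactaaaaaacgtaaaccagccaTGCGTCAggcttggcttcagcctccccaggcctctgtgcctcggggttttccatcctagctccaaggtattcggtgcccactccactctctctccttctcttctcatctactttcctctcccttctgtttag
The match began 79 bases before the start in Vip, 199 and 43 in Tac1 and 132 in Nos1. Windows were read for 7 of the 10 genes. Calcb and Penk had none, and Grp was left out by a filter on its chromosome that the full set of 32851 windows did not undergo. Among the 7, TGACG on either strand occurred in 5 (Vip, Tac1, Nos1, Chat and Dbh), beside 17.8% of 32851 windows of that length. TGCGTCA on either strand occurred in 2 (Tac1 and Nos1), beside 1.75%. The full palindrome TGACGTCA occurred in 0 of 7, beside 1.55% of windows. Of the 5 genes with the match, Vip, Tac1 and Nos1 rose and the slopes of Chat and Dbh did not pass the test. Gal and Npy, whose windows held no match, did not pass it either. A match describes letters in a window and not a bound site. Whether a window is a promoter used in colon was not tested, for Nos1 as for the others.

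**Figure D1:**
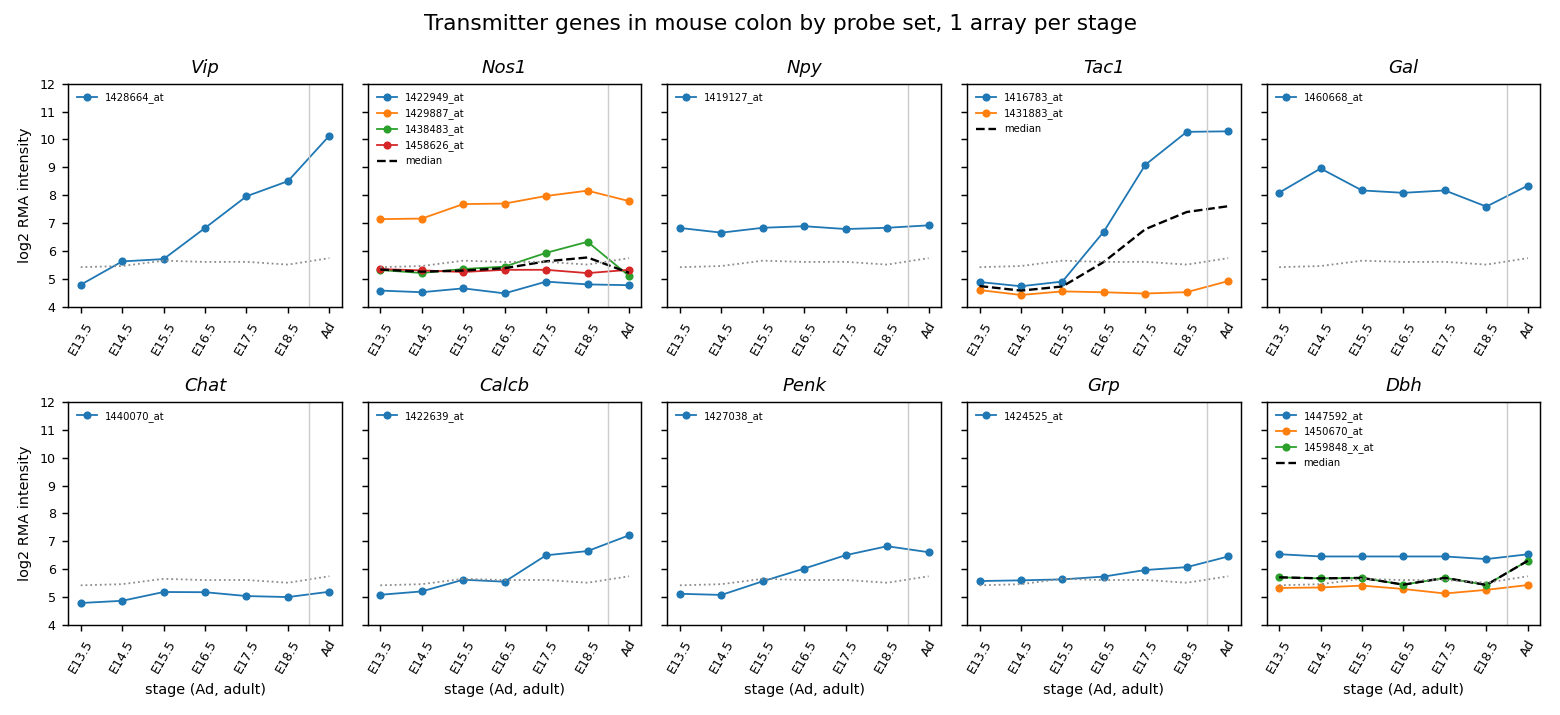
Log2 intensity (y axis) of each single-gene probe set of the 10 genes at the 7 stages (x axis, 1 array each, embryonic stages to the left of the vertical line), with 1 panel per gene and 1 line per probe set. The dotted grey line is the 95th percentile of 80 olfactory and vomeronasal receptor probe sets on each array. Vip climbs from 4.80 to 10.14 and 1 of the 2 Tac1 probe sets from 4.90 to 10.29, while Npy stays between 6.66 and 6.93.

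Vip, which encodes vasoactive intestinal peptide, a relaxant of gut muscle and a driver of secretion, had the steepest rise of the 10. From E13.5 to E18.5 its only probe set read 4.80, 5.63, 5.72, 6.83, 7.97 and 8.51, and the adult array read 10.14. Each array was above the one before, although the step from E14.5 to E15.5 (0.08) was smaller than the residual SD around the line (0.30). The slope was 0.76 log2 per day (SE 0.06, adjusted p = 0.000862, limma), and E18.5 stood 13.1-fold above E13.5. The adult array was 1.66 log2 above the level fitted at E18.5 (SE 0.30, adjusted p = 0.0101, limma), a 3.15-fold difference. The slope stayed between 0.73 and 0.80, and past the threshold, when each embryonic array was left out in turn.

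Tac1 encodes the precursor of substance P and neurokinin A, the tachykinins of excitatory motor and sensory neurones. Its probe set 1416783_at read 4.90, 4.74 and 4.91 from E13.5 to E15.5, then 6.70, 9.09 and 10.27 on the next 3 days and 10.29 in the adult. The first 3 arrays were alike and the last 2 were alike, so the whole rise fell between E15.5 and E18.5. At E18.5 this probe set was 41.6-fold above E13.5, with a slope of 1.19 log2 per day (SE 0.18, adjusted p = 0.00784 over 34958 probe sets, limma). The other probe set, 1431883_at, lay between 4.43 and 4.61 in the embryos and at 4.93 in the adult, with a slope of -0.01 (adjusted p = 0.885, limma). On every array 1431883_at lay below the 95th percentile of the olfactory and vomeronasal receptor probe sets, so a flat level and weak probes cannot be told apart. The 2 probe sets of Tac1 thus disagreed. Their median, with a slope of 0.59 (SE 0.09, adjusted p = 0.00688, limma), understates the change that 1416783_at shows. Without the E18.5 array the gene slope was 0.51 with an adjusted p of 0.0633 in limma.

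Penk encodes proenkephalin, the precursor of the enkephalins, opioid peptides that dampen transmitter release. It read 5.12, 5.08, 5.57, 6.03, 6.51 and 6.83 on the 6 embryonic arrays in order of age and 6.61 in the adult. From E14.5 onward the embryonic arrays climbed in steps of 0.32 to 0.49, and the adult array lay between E17.5 and E18.5. The slope was 0.38 log2 per day (SE 0.03, adjusted p = 0.00134, limma), and E18.5 was 3.26-fold above E13.5.

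Calcb encodes the beta form of calcitonin gene-related peptide, carried in the gut by intrinsic sensory neurones. In order of age the embryonic arrays read 5.09, 5.21, 5.63, 5.56, 6.50 and 6.65, and the adult array 7.22. Most of the embryonic rise was the step of 0.95 between E16.5 and E17.5, while the steps from E15.5 to E16.5 (-0.07) and from E17.5 to E18.5 (0.15) were smaller than the residual SD (0.24). The slope was 0.33 log2 per day (SE 0.05, adjusted p = 0.00485, limma), and the adult difference of 0.61 did not pass the test (SE 0.24, adjusted p = 0.138, limma).

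Grp encodes gastrin-releasing peptide, made by some enteric interneurones and motor neurones to the mucosa. It read 5.58, 5.61, 5.64, 5.74, 5.98 and 6.08 from E13.5 to E18.5 and 6.46 in the adult. The 7 arrays were in the order of age, but the embryonic change was small, 1.41-fold from E13.5 to E18.5. Its slope was 0.11 log2 per day (SE 0.02, adjusted p = 0.0168, limma), and the call was lost without E14.5 (adjusted p = 0.0577), E17.5 (0.0624) or E18.5 (0.106). Relative to the pan-neuronal median the slope was 0.0078 (adjusted p = 0.916, limma).

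Gal and Npy did not pass the slope test. Gal encodes galanin, a peptide that modulates enteric transmission, and it read 8.09, 8.96, 8.18, 8.09, 8.18 and 7.60 on the embryonic arrays and 8.35 in the adult. The E14.5 array was the highest and the E18.5 array the lowest, with the other 5 between 8.09 and 8.35. The slope of Gal was -0.14 log2 per day (SE 0.07, adjusted p = 0.258, limma). Relative to the pan-neuronal median it was -0.24 (adjusted p = 0.0012, limma), in a setting where all genes share the error of that median. Npy encodes neuropeptide Y, found in secretomotor neurones and in sympathetic nerves, and it read 6.83, 6.66, 6.84, 6.89, 6.79 and 6.84 from E13.5 to E18.5 and 6.93 in the adult. Its 7 levels spanned 0.26 log2, with a slope of 0.01 (SE 0.02, adjusted p = 0.759, limma).

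Nos1 is the neuronal nitric oxide synthase, the enzyme behind nitrergic relaxation, and its 4 probe sets did not move together. The probe set 1429887_at read 7.15, 7.17, 7.69, 7.71, 7.98 and 8.17 from E13.5 to E18.5 and 7.79 in the adult. A second, 1438483_at, read 5.33, 5.22, 5.36, 5.45, 5.94 and 6.34, and 5.12 in the adult. Both rose in the embryos, by slopes of 0.22 (SE 0.03, adjusted p = 0.00441) and 0.21 log2 per day (SE 0.04, adjusted p = 0.0229) in limma, the first from E15.5 and the second from E17.5. The adult array was below the fitted E18.5 level in 1438483_at (difference -1.01, SE 0.23, adjusted p = 0.0271, limma), and the difference of -0.39 in 1429887_at did not pass (adjusted p = 0.118). The remaining probe sets were near-flat in the embryos, between 4.49 and 4.91 for 1422949_at (slope 0.06, adjusted p = 0.272, limma) and between 5.22 and 5.36 for 1458626_at (slope -0.02, adjusted p = 0.666, limma). Both lay below the 95th percentile of the olfactory and vomeronasal receptor probe sets on every array, so they may be weak probes. Counted by probe set, 7 of the 16 rose, beside 7.24% of all 34958, and 0 fell, beside 9.55% (0 with a slope below 0 at an unadjusted p under 0.05 in limma). In the adult 1 was called higher (that of Vip), beside 3.94%, and 1 lower (1438483_at of Nos1), beside 4.21%.

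As the median of these 4, Nos1 had a slope of 0.10 log2 per day (SE 0.03, adjusted p = 0.0450, limma) and an adult difference of -0.47 (SE 0.14, adjusted p = 0.0559). The slope call is the least secure of the 6. It was lost on leaving out E14.5 or any 1 array from E16.5 on, on centring each array on its median (adjusted p = 0.0634), with stage order, adult included, in place of embryonic day (0.0356, adjusted p = 0.542) and relative to the pan-neuronal median, where the slope was -0.0019 (adjusted p = 0.98).

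Chat, the choline acetyltransferase that makes acetylcholine, read 4.79, 4.87, 5.19, 5.18, 5.04 and 5.01 on the embryonic arrays in order of age and 5.20 in the adult. No trend with age passed the test (slope 0.04 log2 per day, SE 0.03, adjusted p = 0.425, limma). All 7 values lay below the 95th percentile of 80 probe sets of olfactory and vomeronasal receptor genes, which ran from 5.43 to 5.75 over the arrays. Those genes serve sensory epithelium, so their probe sets give a guide to a dim level, but brightness depends on the probes and the guide is no detection call. The single probe set of Chat cannot say whether the gene was low or the probes weak.

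Dbh, dopamine beta-hydroxylase, makes noradrenaline and marks sympathetic neurones and a transient class of enteric precursors. Its probe set 1459848_x_at, which was also the median of the 3, read 5.71, 5.68, 5.69, 5.45, 5.69 and 5.44 from E13.5 to E18.5 and 6.31 in the adult. The embryonic arrays showed no trend (slope -0.04 log2 per day, SE 0.03, adjusted p = 0.315, limma), and the adult array was 0.81 above the fitted E18.5 level (SE 0.13, adjusted p = 0.00756), short of the 1 log2 asked of an adult call. The other probe sets ran from 6.37 to 6.54 (1447592_at) and from 5.13 to 5.44 (1450670_at) over all 7 arrays, with adult differences of 0.14 (adjusted p = 0.405) and 0.22 (adjusted p = 0.305) in limma. An _x_at suffix marks probes that can also match other transcripts, and the adult difference of Dbh rested on that probe set.

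By onset, taken as the first stage at least 1 log2 above E13.5 that stayed so on every later embryonic array, the genes reached the threshold at different stages. Vip reached it at E16.5, Tac1, Penk and Calcb at E17.5, and the other 6 genes not by E18.5. Thus 4 of the 10 had an onset, beside 4.89% of all genes. At E13.5 Vip (4.80), Tac1 (4.75), Penk (5.12) and Calcb (5.09) lay below the guide level for dim probe sets on that array (5.43). Onsets and folds taken from E13.5 thus start at a dim level, where a change may go unseen. The day at which 50% of the rise to the highest embryonic array was reached, interpolated between arrays, was 16.3 for Vip, 16.4 for Penk, 16.8 for Calcb and 16.9 for Tac1. These days lie within 1 sampling interval, so no order among the 4 genes is resolved by them. On 1416783_at alone Tac1 reached its onset at E16.5, alongside Vip, and on 1429887_at or 1438483_at alone Nos1 reached it at E18.5. With a rise of 0.5 asked instead of 1, Vip moved to E14.5 and Tac1 and Penk to E16.5, and with 1.5 asked Calcb and Penk moved to E18.5.

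**Figure D2:**
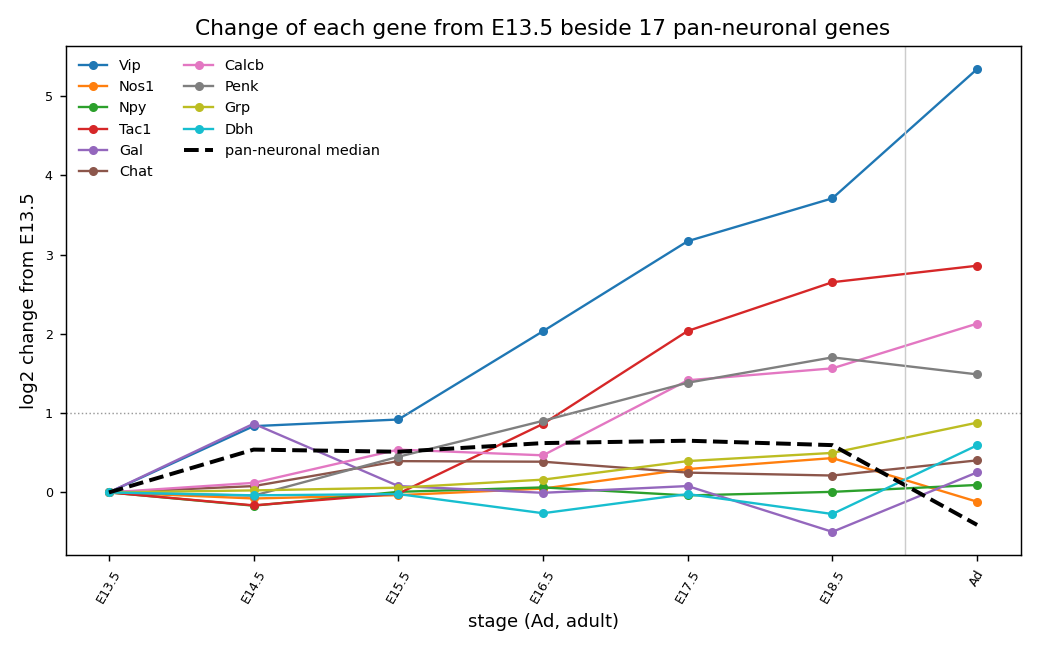
Change in log2 level from E13.5 (y axis) of the 10 genes at the 7 stages (x axis, Ad for adult, 1 array each), with 1 line per gene and the dotted line at the onset threshold of 1. The dashed black line is the change of the median over 17 pan-neuronal genes. Only Vip, Tac1, Penk and Calcb cross the threshold, at E16.5 or E17.5.

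Steps of at least 1 log2 between neighbouring stages were few among the 10 genes. From E15.5 to E16.5 it was Vip (1.11), beside 1.01% of all genes, and from E16.5 to E17.5 it was Vip (1.14) and Tac1 (1.17), beside 0.649%. From E18.5 to the adult Vip rose again (1.63), beside 4.33% of all genes. The embryonic change relative to the pan-neuronal median, from E13.5 to E18.5, was 3.11 for Vip, 2.06 for Tac1, 1.11 for Penk and 0.97 for Calcb, between -0.16 and -0.10 for Nos1 and Grp, and between -1.09 and -0.38 for Gal, Dbh, Npy and Chat. Most of the pan-neuronal change lay between the first 2 arrays, so the signs for Grp, Nos1, Npy and Chat rest on E13.5. From E14.5 to E18.5 their relative changes were 0.42, 0.45, 0.12 and 0.08, while those of Gal and Dbh stayed negative at -1.42 and -0.29. Single pan-neuronal genes also rose steeply, with E13.5 and E18.5 levels of 5.33 and 8.23 for Snap25 and of 5.33 and 7.15 for Rtn1.

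In the adult, 1 of the 10 genes (Vip) was called higher than the fitted E18.5 level by at least 1 log2 at an adjusted p under 0.05 in limma, as were 4.23% of all genes. None was called lower, as were 3.26% of all genes, although Nos1 had an unadjusted p under 0.05 (1 gene of the 10). Grp, with a difference of 0.43 (SE 0.11, adjusted p = 0.0401), and Dbh passed the p but not the size. The median adult difference of the 10 genes was 0.45, beside 0.0334 over all genes. Of 17 pan-neuronal genes measured, 9 were called lower in the adult and 0 higher, among them the neuronal hydrolase Uchl1 (difference -2.29, adjusted p = 0.000136) and the cytoskeletal regulator Stmn2 (-2.39, adjusted p = 0.00211) in limma. Vip and the general neuronal genes thus moved in opposite directions on the adult array, which is a single library and is assumed to vary like the embryonic ones.

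**Figure D3:**
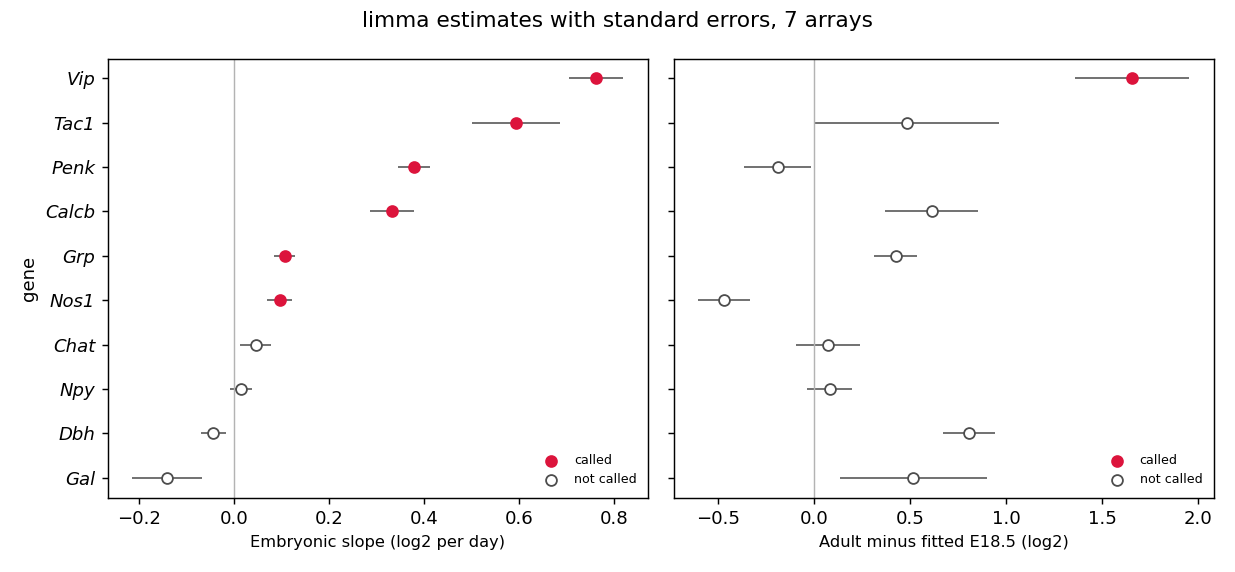
Embryonic slope in log2 per day (left) and adult minus fitted E18.5 level in log2 (right) of the 10 genes, with limma standard errors as bars and filled points for called genes. The 6 called slopes run from 0.10 (Nos1) to 0.76 (Vip), and Vip (1.66) is the only called adult difference.

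The partners that make and load the small transmitters were read next. Of 19 measured genes of transmitter synthesis and transport, 1 rose in the embryos and 0 fell, beside 9.12% and 10.4% of all genes, with a median slope of 0.0159, and 3 were called higher in the adult, beside 4.23%. Gch1, the entry enzyme to tetrahydrobiopterin, the cofactor of nitric oxide and monoamine synthesis, rose by 0.12 log2 per day (SE 0.03, adjusted p = 0.0242, limma). Its embryonic levels ran from 4.41 to 5.01, below the guide level for dim probe sets on each of those arrays. In the adult it was 1.34 above the level fitted at E18.5. The others higher in the adult were Tph1, the serotonin-making hydroxylase of enterochromaffin cells (2.40, adjusted p = 0.00019), and Maoa, a monoamine-degrading oxidase (2.21, adjusted p = 0.00249). The cholinergic transporters Slc18a3 and Slc5a7 lay between 4.68 and 5.36 and between 4.67 and 4.94 over the 7 arrays, each below the guide level for dim probe sets throughout, and Th, the first enzyme on the path to noradrenaline, lay between 4.66 and 4.90.

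Of 17 other neuropeptide genes measured, 3 rose and 2 fell in the embryos, beside 9.12% and 10.4% of all genes, with a median slope of 0.0115. Nts, the precursor of neurotensin, rose late, at 4.52, 4.74, 4.66 and 4.88 from E13.5 to E16.5, then 6.48 and 7.74, and 8.62 in the adult (slope 0.61, SE 0.13, adjusted p = 0.0190, limma). Scg2 (slope 0.15, adjusted p = 0.0398) and Vgf (0.12, adjusted p = 0.0388), precursors of granin-family peptides, rose less, Vgf below the guide level for dim probe sets on every array. Cartpt, a peptide precursor of enteric neurones, went the other way, with 8.86, 9.06, 8.15, 7.61, 7.30 and 7.79 in the embryos and 6.61 in the adult (slope -0.32, SE 0.08, adjusted p = 0.0312), and Tac2, the neurokinin B precursor, fell too (slope -0.18, adjusted p = 0.0203). In the adult Sst, somatostatin (difference 2.01, adjusted p = 0.00983), and Nmu, neuromedin U (1.28, adjusted p = 0.00028), were higher in limma, beside 4.23% of all genes, and 0 were lower. Of the tachykinin genes, Tac1 thus rose and Tac2 fell in the embryonic colon, with limits on both. The rise of Tac1 was seen on 1 of its 2 probe sets. Tac2 was above the guide level for dim probe sets on 3 of the 7 arrays, E13.5 to E15.5.

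**Figure D4:**
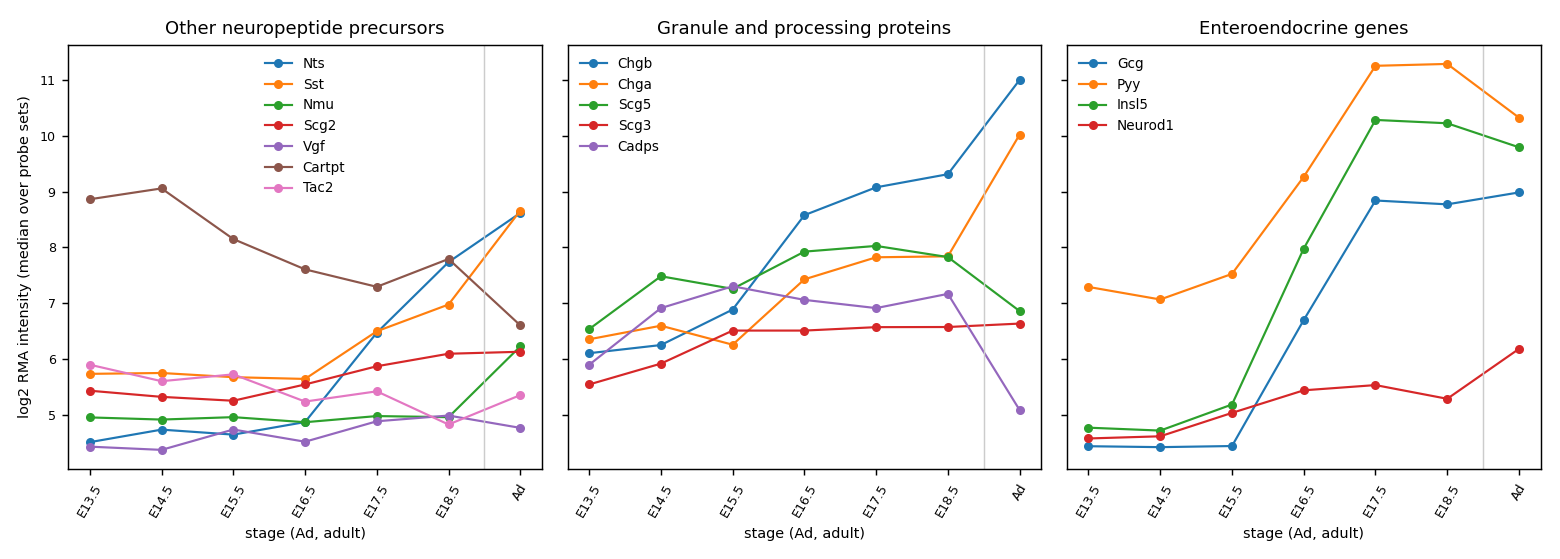
Log2 level (y axis) at the 7 stages (x axis, 1 array each) of the called genes among the other neuropeptides (left), the peptide-processing and granule proteins (middle) and the enteroendocrine markers (right). Nts climbs from 4.52 to 8.62 and Chgb from 6.11 to 11.00, while Cartpt goes from 8.86 to 6.61, and Gcg, Pyy and Insl5 climb after E15.5.

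Of 9 measured genes for the proteins that process and store peptides in dense-core granules, 4 rose and 0 fell, beside 9.12% and 10.4% of all genes, with a median slope of 0.174. Chgb, chromogranin B, rose by 0.75 log2 per day (SE 0.08, adjusted p = 0.00244, limma) and Chga, chromogranin A, by 0.35 (SE 0.07, adjusted p = 0.0146), with Scg5 (0.25, adjusted p = 0.0368) and Scg3 (0.20, adjusted p = 0.0254) behind them. In the adult Chga was 2.09 higher (adjusted p = 0.00803), while Scg5 (-1.27, adjusted p = 0.0393) and Cadps, an activator of dense-core release (-2.22, adjusted p = 0.0115), were lower. Of 23 measured receptors for the 10 transmitters, 0 rose and 1 fell, beside 9.12% and 10.4% of all genes, with a median slope of 0.00566. It was Gucy1b1, a subunit of the guanylate cyclase that senses nitric oxide, with a slope of -0.19 (SE 0.03, adjusted p = 0.00973), and no receptor was called in the adult. These receptor counts are near the shares over all genes.

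Since peptides and granins are shared with hormone cells, the markers of the other cell types in the wall stand beside these results. Of 7 enteroendocrine genes measured, 4 rose, beside 9.12% of all genes: the proglucagon gene Gcg (4.45 at E13.5, 6.70 at E16.5 and 8.77 at E18.5), Pyy, the peptide YY gene (7.29, 9.26 and 11.28), Insl5 (4.78, 7.98 and 10.22) and the transcription factor Neurod1 (4.59 at E13.5 and 5.30 at E18.5). The mean log2 level of the 7 genes ran from 5.53 to 7.76 in the embryos and was 7.57 in the adult. Neurog3 lay between 4.65 and 4.91 on the arrays, and Neurod1 lay below the guide level for dim probe sets on every embryonic array. Gcg, Pyy and Insl5 climbed after E15.5, as did the Tac1 probe set 1416783_at, and the step of Vip from E15.5 to E16.5 fell in the same interval. All 8 epithelial genes rose, from a mean of 9.08 to 10.8, as did 6 of 8 smooth muscle genes, from 7.76 to 9.08. Of 17 pan-neuronal genes 6 rose and 0 fell, with a median slope of 0.105. The part of the other cell types in the levels of the 10 genes was not tested.

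Of 8 sympathoadrenal genes, 2 rose and 0 fell, beside 9.12% and 10.4% of all genes. They were Chgb, already counted among the granule genes, and the granule cytochrome Cyb561 (slope 0.33, adjusted p = 0.000769, limma). On the adult array Cyb561 was 1.04 log2 above the level fitted at E18.5. The defining markers Th, Slc6a2 and Pnmt lay between 4.66 and 5.60, each below the guide level for dim probe sets on all 7 arrays, and were not called in the adult. The adult level of Dbh thus stood beside a higher Cyb561, and beside no called difference of those 3 markers.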

How the data were processed

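Colon RNA was measured on 7 Affymetrix Mouse Genome 430 2.0 arrays, 1 per stage. The authors deposited log2 values made with RMA, which corrects background, gives all arrays the same distribution and summarises the probes of a set, so a shift common to most genes would be hidden. The tools given in the submitters' processing notes are affy 1.22.1 and R 2.9.2. Array medians lay between 5.81 and 5.86. Of 45101 probe sets, 34958 naming 1 gene in the platform annotation were used, and 932 naming several and 9211 naming none were left out. Symbols were updated through gene identifiers in a GRCm38.p6 table (18033 of 18195 matched), and the level of a gene was the median over its probe sets. limma 3.58.1 in R 4.3.3 (lmFit, eBayes) fitted a slope per embryonic day and the adult difference from the fitted E18.5 level to all genes, with 4 residual degrees of freedom and Benjamini-Hochberg adjustment over all of them. A slope was called at an adjusted p under 0.05, and an adult difference also needed 1 log2. P-values measure only the spread between these arrays, which may be technical. No filter on dim genes was applied, and no detection calls were used. The limma fit was tested on simulated arrays, where 58% of slopes of 0.2 log2 per day and 98% of slopes of 0.5 were called. A slope that did not pass may therefore be a small change that was missed.

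The 10 genes and the lists were chosen with earlier results of these data known. Named were all 10 genes with every probe set. From each list came up to 4 called genes by slope and by adult difference, and from each cell type the first 3 markers. The 3 genes most like a member were named only for members that ranged over at least 1 log2. Alternatives tried were the brightest probe set of a gene, each probe set alone, the dimmest 25% of genes left out, centring on the median, robust eBayes with a trend, a quadratic curve, a slope on stage order over 7 arrays, a reference for the adult fitted midway between E17.5 and E18.5, each embryonic array left out, and other onset thresholds. The windows before gene starts came from a RefSeq table of GRCm38.p6. Python 3.11.15, pandas 2.3.3, numpy 2.4.6 and matplotlib 3.10.9 were used.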

Additional observations from a re-analysis of the deposited data

How the results depend on the processing

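No paired analysis was possible because each stage has 1 array. The number of the 10 genes that rose ranged from 3 (without E18.5) to 6 on leaving out each embryonic array, against 6 with all. It was 3 without E13.5 and E14.5 and 4 relative to the pan-neuronal median, both chosen after seeing the data. In the latter 1 gene (Gal) fell, and all genes shared the error of that median. With each probe set on its own, 1 was lower in the adult (Nos1 1438483_at). Among the called slopes, those that turned sign were that of Nos1 relative to the pan-neuronal median (-0.00189) and those of the Nos1 probe set 1458626_at (-0.0166) and the Tac1 probe set 1431883_at (-0.00705). Slopes or adult differences of Npy, Chat, Dbh and Nos1 that were not called crossed 0 in 9 further cases, between -0.0842 and 0.0733, and stayed uncalled. Calls were also lost for Calcb without E13.5 and E14.5 (adjusted p = 0.0839, limma). Of the other slopes and adult differences of single genes, 257 kept direction and call, and Vip, Penk and Calcb kept their slope call on leaving out any 1 embryonic array. The count with an onset was 4 and, with the brightest probe set, 5 (with Nos1), and rises of at least 1 between neighbours were 4 and 6. Dim probe sets, such as that of Chat, limit what can be seen. Leaving out the dimmest 25% of genes removed Chat, so it has no value there. Where a value changed, the cause was not tested.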

Other observations

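The members that moved by at least 1 log2 were compared with 4126 genes that ranged as much across the 7 arrays. Genes with only a predicted-gene or clone-type symbol were left out of these. The genes most like those members were not neuronal by name. Nearest to Vip were Selenos (Pearson r = 0.998 over 7 arrays), the epithelial adhesion gene Ceacam1 (0.997) and Plek2 (0.997). Nearest to Tac1 were Clec2h, Ccdc3 and Fam3b, to Penk Sycp3, Pla2g2f and Nt5e, and to Calcb Aadac, Slc24a3 and Galm, with r from 0.987 to 0.997. Gal had no close neighbour, the nearest being Cdh19, a gene of enteric neural crest and glia (0.816), Rgs5 (0.798) and Cwf19l2 (0.774). The points share age, and many genes rose with it, so such values describe likeness in time only.

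Of 13 measured transcription factors of neurone subtypes, 1 rose and 3 fell in the embryos, beside 9.12% and 10.4% of all genes. Phox2a, a determinant of autonomic neurones, rose by 0.18 log2 per day (adjusted p = 0.0029, limma), below the guide level for dim probe sets on every array. Bnc2 (-0.37, adjusted p = 0.00248), Meis2 (-0.28, adjusted p = 0.00281) and Pbx3 (-0.09, adjusted p = 0.0225) fell in limma. In the adult they differed from the level fitted at E18.5 by -1.89, -1.57 and -1.60. Whole colon was measured, so these levels are not those of neurones alone, and the part of other cell types was not tested. Of 8 measured genes of enteric neural crest and glia, 2 rose (S100b, slope 0.13, and Fabp7, 0.41) and 2 fell (Cdh19, -0.24, and Foxd3, -0.10), beside the same shares of all genes. S100b also lay below that guide level on every array. Fabp7, a fatty acid binding protein of glia and their precursors, was lower in the adult (difference -4.65 log2, adjusted p = 0.000442, limma).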
